A study of Mus musculus with 4 samples.

Results

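The genes described here encode the proteins that carry sodium across an epithelium. They are 8 of the 57186 genes in the deposited count table: the epithelial sodium channel (ENaC) subunit genes Scnn1a, Scnn1b and Scnn1g, the channel regulators Sgk1 and Nedd4l, the sodium-potassium-chloride cotransporter gene Slc12a2, and the sodium pump subunit genes Atp1a4 and Atp1b1. They were matched by symbol and chosen by name for their roles in luminal sodium uptake, except that Atp1a4 was selected on its large difference between knockout and control in these same libraries, so the differences between groups are given below as a description. The deposited table of TPM (a transcript level scaled for gene length and library size) lists 7 of the 8, and the same 7 had enough counts to be tested; Scnn1g is described from its counts.

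RNA of whole mouse uterus on gestational day 4 was sequenced in 2 libraries labelled Prss29Cre/Cre;Pgrf/f (Pgr gecKO) and in 2 libraries labelled Control WT. In the knockout, by its label, both Prss29 alleles carry Cre, which is thereby driven from a protease gene of uterine glands, and Pgr, the progesterone receptor gene, is floxed. The label gives both changes to the knockout and neither to the control, so their parts cannot be told apart. The sources used here give neither age nor strain nor the number of animals behind a library, and the p-values therefore reflect only how these libraries vary, which may be technical variation. Total counts were 29932153 to 35149834 per library. Pgr itself stood at 130.1 and 146.2 CPM (library-scaled counts, using TMM) in the knockout libraries, against 140.5 and 138.6 CPM in the controls; stroma and muscle also transcribe it, so the whole-uterus level is no check of a deletion in gland cells. Prss29 had 0 and 0 counts in the knockouts, against 1524 and 190 counts in the controls. Markers of stroma (7 of 7), smooth muscle (8 of 8) and luminal epithelium (10 of 10) all had enough counts to be tested. The summed smooth muscle markers were uneven, at 7224 and 10470 TPM in knockout replicates 1 and 2 and 8546 and 2847 TPM in control replicates 1 and 2. The luminal markers summed to 2477 and 2312 TPM in the knockouts, against 1982 and 2835 TPM in the controls. In bulk tissue, fewer cells of a type and less RNA per cell cannot be told apart.

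In a sodium-absorbing epithelium, sodium enters the cell from the lumen through ENaC, a channel built of alpha, beta and gamma subunits, and is pumped out at the basal side by the Na,K-ATPase, a complex of an alpha (catalytic) and a beta subunit. The kinase SGK1 raises the number of channels at the surface by phosphorylating NEDD4L, a ubiquitin ligase that otherwise marks ENaC for removal. Around implantation the uterine lumen loses fluid and closes, and in mouse uterus serine proteases have been reported to activate ENaC, while sustained SGK1 activity has been reported to hinder implantation.

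The 8 genes spanned a wide range of levels. By mean TPM over the 4 libraries the order was Atp1b1 (367), Slc12a2 (55.5), Sgk1 (27.6), Scnn1b (19.4), Nedd4l (16.9), Scnn1a (6.40), Atp1a4 (0.561) and Scnn1g (0.0888). Atp1b1 exceeded 98.5% of the genes in the TPM table, Scnn1b 58.0% and Scnn1a 34.2%. The ranges over the libraries of Sgk1 and Scnn1b overlapped, as did those of Scnn1b and Nedd4l and those of Atp1a4 and Scnn1g, so these neighbours in the order cannot be ranked. The other neighbours were separate in every library.

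**Figure D1:**
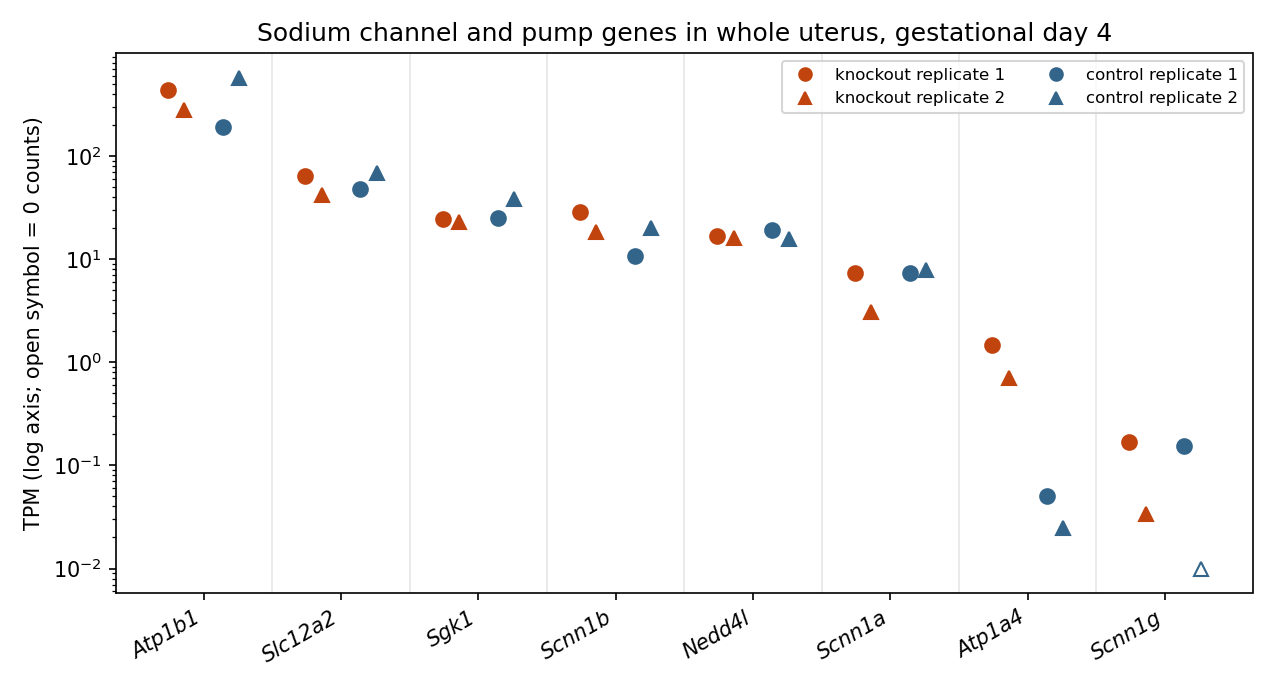
Level of each gene (TPM, log axis) in the 2 knockout libraries (orange) and the 2 control libraries (blue), 1 symbol per library; the open symbol stands for 0 counts. Atp1b1 lies highest with controls at 190.6 and 573.2 TPM, and Atp1a4 is the gene whose groups lie farthest apart.

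Of the 3 ENaC subunits, transcripts of alpha and beta were present and those of gamma were close to the limit of detection. Scnn1a, the alpha subunit, which is needed for a working channel, had 301 and 124 counts in the knockouts, or 7.28 and 3.06 TPM, against 331 and 357 counts in the controls, or 7.38 and 7.90 TPM. Knockout replicate 2 was low and the other 3 libraries were close together. Its mean was 6.76 ± 3.31 CPM in the knockouts and 9.85 ± 0.457 CPM in the controls (SD, n = 2 each), a log2 fold change of −0.54 (SE 0.41, 95% interval −1.52 to 0.44). Without knockout replicate 2 this was −0.11, and without knockout replicate 1 it was −1.15.

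Scnn1b, the beta subunit, had 28.8 and 18.1 TPM in the knockouts, against 10.7 and 19.9 TPM in the controls. Control replicate 1 was the low library, and the groups overlapped in TPM, while in CPM both knockouts (22.9 and 16.7) lay above both controls (8.78 and 16.4) by a narrow gap. The log2 fold change was 0.66 (SE 0.37, 95% interval −0.23 to 1.54). Leaving out control replicate 2 gave 1.17, and leaving out control replicate 1 gave 0.29.

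Scnn1g, the gamma subunit, had 5 and 1 counts in the knockouts, against 5 and 0 counts in the controls, where 3 counts equal 0.0855 to 0.107 CPM. The ratio of normalised counts, knockout over control, was 1.37 with a 95% exact counting interval of 0.349 to 5.68, so a difference was not detectable at this depth. The ratio was 0.498 without knockout replicate 1, 2.11 without knockout replicate 2 and 0.682 without control replicate 2, and without control replicate 1 the counts were 6 in the knockouts against 0 in the remaining control. The interval covers counting error only. Scnn1g and Scnn1b lie next to each other on chromosome 7 and run in the same direction, yet Scnn1b stood at 10.7 TPM or more in every library while Scnn1g reached at most 0.167 TPM. Their promoters are shown because they differ in this way in level. Each window runs from 250 bases before to 50 bases after the RefSeq start, on the + strand in GRCm38.p6 (the libraries were aligned to GRCm39), at chr7:121734229-121734528 for Scnn1g and chr7:121864788-121865087 for Scnn1b, with GC boxes (GGGCGG, either strand) in capitals.
Scnn1g: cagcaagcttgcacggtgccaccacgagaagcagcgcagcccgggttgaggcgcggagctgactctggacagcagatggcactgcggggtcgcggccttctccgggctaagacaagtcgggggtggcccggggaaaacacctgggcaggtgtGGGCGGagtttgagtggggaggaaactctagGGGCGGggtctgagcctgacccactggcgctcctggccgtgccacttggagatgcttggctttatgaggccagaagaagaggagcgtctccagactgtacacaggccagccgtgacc
Scnn1b: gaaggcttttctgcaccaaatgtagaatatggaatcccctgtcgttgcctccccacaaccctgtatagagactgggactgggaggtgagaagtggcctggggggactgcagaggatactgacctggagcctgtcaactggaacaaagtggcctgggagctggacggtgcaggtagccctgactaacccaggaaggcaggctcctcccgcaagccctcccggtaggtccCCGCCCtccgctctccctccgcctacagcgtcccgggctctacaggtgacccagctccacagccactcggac
The gene with almost no counts had 2 GC boxes, 18 CpG and 64.7% G and C in its window, against 1 GC box, 10 CpG and 61.7% for the well-counted gene. A GC box was found in 35.7% of the 32851 promoters in the RefSeq table, whose median G and C content was 52.7%. Neither window holds the hexamer TGTTCT of steroid receptors on either strand. Such a match or its absence describes the letters and nothing more.

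Within each library, beta transcripts exceeded alpha transcripts. The ratio of Scnn1b to Scnn1a TPM was 3.95 and 5.92 in the knockouts, against 1.45 and 2.52 in the controls. The groups did not overlap, and the mean log2 ratio was 1.34 higher in the knockouts, with SDs of 0.41 in the knockouts and 0.57 in the controls. Every other ratio between genes formed in this way overlapped between the groups. For Sgk1 to Nedd4l, for example, it was 1.45 and 1.42 in the knockouts, against 1.33 and 2.43 in the controls. Among single genes, 12.2% of all tested had both knockouts above both controls in CPM, and the share among ratios was not computed. A ratio within a library does not depend on how libraries are scaled. With 2 libraries a group no exact test can reach 0.05, and none is given.

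**Figure D2:**
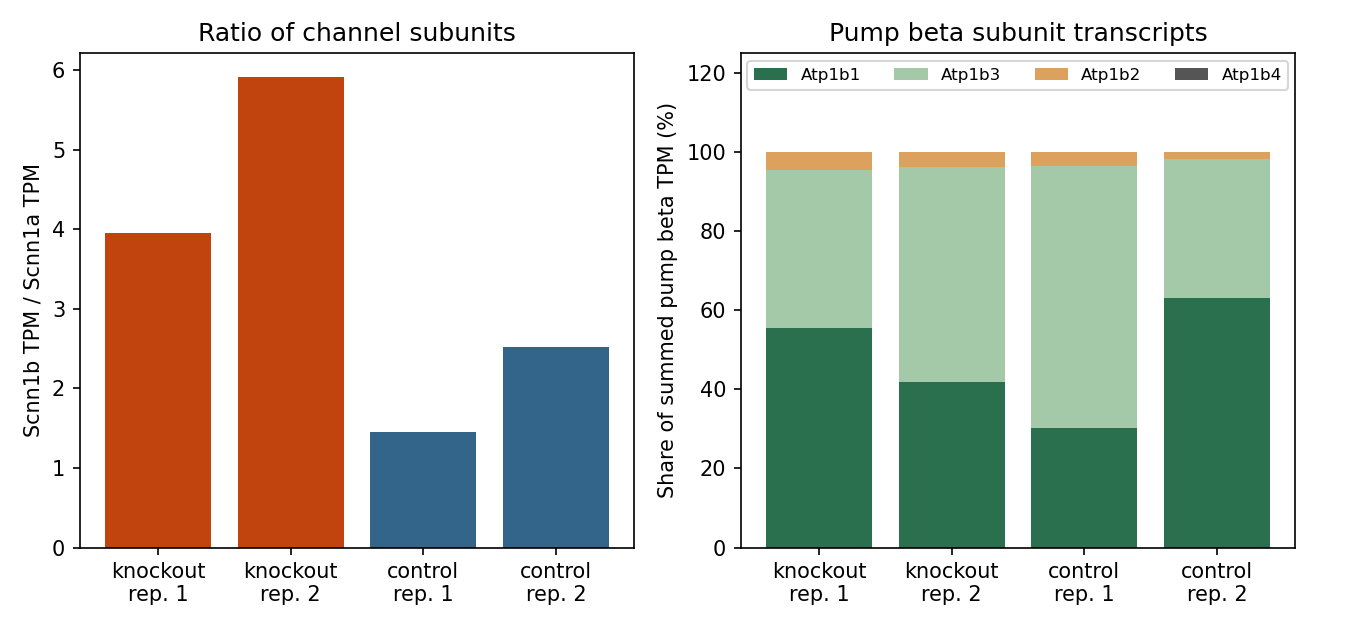
Left, the ratio of Scnn1b to Scnn1a TPM in each library; right, the share of each Na,K-ATPase beta subunit gene in the summed beta subunit TPM (%). Both knockout ratios (3.95 and 5.92) exceed both control ratios (1.45 and 2.52), while the Atp1b1 share spans 30.2% to 63.0% between the controls alone.

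For the regulators of ENaC the 95% intervals of the fold changes included no change. Sgk1, the kinase, had 24.4 and 22.8 TPM in the knockouts, against 25.1 and 37.9 TPM in the controls. Control replicate 2 was high and the other 3 libraries lay close together. Both knockouts lay below both controls in TPM, while in CPM the groups overlapped (36.2 and 39.1 in the knockouts, against 38.5 and 58.0 in the controls). The log2 fold change was −0.36 (SE 0.26, 95% interval −0.98 to 0.26), and it was −0.03 without control replicate 2. Nedd4l, the ubiquitin ligase, had 16.8 and 16.1 TPM in the knockouts, against 18.9 and 15.6 TPM in the controls. Its groups overlapped and its log2 fold change was −0.01 (SE 0.22), with a 95% interval of −0.53 to 0.51 that leaves room for a change of up to about that size in either direction. An antisense gene covers 1.57% of the annotated exon bases of Nedd4l and it had 41 to 54 counts per library; the counting's strand setting is unknown here.

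Sgk1 is a textbook target of steroid receptors, and its promoter is shown because it holds the element through which progesterone, glucocorticoid and mineralocorticoid receptors all bind DNA. RefSeq gives 6 start windows for Sgk1, and 1 of them, chr10:21993640-21993939 on the + strand in GRCm38.p6, contains AGNACA followed after any 3 bases by TGTNCT. This element was present in 21 of the 32851 promoters, or 0.0639%. Capitals mark the element, the hexamer TGTTCT or its reverse AGAACA (present in 19.0% of promoters, and overlapping the element here) and a GC box.
Sgk1: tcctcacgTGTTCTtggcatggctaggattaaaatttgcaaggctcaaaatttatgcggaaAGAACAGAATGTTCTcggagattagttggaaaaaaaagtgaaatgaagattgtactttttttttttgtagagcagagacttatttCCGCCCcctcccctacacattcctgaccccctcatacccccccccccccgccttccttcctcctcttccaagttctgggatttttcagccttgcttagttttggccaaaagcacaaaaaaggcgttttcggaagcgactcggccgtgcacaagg
The counts cover the whole gene, so they do not tell which of the 6 starts was used. Promoter windows were found for 5 of the 8 genes, and the element was in none of the windows of Atp1b1, Atp1a4, Scnn1b and Scnn1g.

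Slc12a2, which brings sodium, potassium and chloride into the cell from the basal side and so supplies chloride for secretion, was the second most abundant of the 8 genes. It had 63.7 and 42.1 TPM in the knockouts, against 47.6 and 68.6 TPM in the controls. Each group held a high and a low library and the groups overlapped. The mean was 185.6 ± 35.3 CPM in the knockouts and 198.1 ± 50.3 CPM in the controls (SD, n = 2 each), with a log2 fold change of −0.09 (SE 0.28, 95% interval −0.76 to 0.58).

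Atp1b1, the beta subunit that carries the pump to the cell surface, was the most abundant, and of the 7 tested genes it had the widest fold between libraries of a group. It had 429.6 and 276.4 TPM in the knockouts, against 190.6 and 573.2 TPM in the controls, so that both knockouts lay between the 2 controls, which differed 3.0-fold in CPM. The log2 fold change was −0.07 (SE 0.50, 95% interval −1.26 to 1.12), which became 0.93 when control replicate 2 was left out and −0.65 when control replicate 1 was left out. Control replicate 2, where Atp1b1 was highest, also had the lowest summed smooth muscle markers (2847 TPM) and the highest summed luminal markers (2835 TPM); their part in the result was not tested. Nme7, on the opposite strand, shares 575 of the 3081 annotated exon bases of Atp1b1 (18.7%), and had 3376 and 1756 counts in the knockouts, against 1891 and 4373 counts in the controls, so reads from the shared stretch cannot be told apart unless strand was used.

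Among the pump's beta subunits, Atp1b1 took 55.4% and 41.9% of the summed TPM in the knockouts, against 30.2% and 63.0% in the controls, and nearly all of the rest was Atp1b3. Atp1b1 and Atp1b3 changed places as the leading beta transcript within both groups. Fxyd4, a small regulator of the pump that was named after its values were seen, varied in the same libraries as Atp1b1, at 477.3 and 276.5 TPM in the knockouts and 139.9 and 611.2 TPM in the controls.

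Atp1a4, the alpha isoform known from testis and sperm, was nearly absent from the control libraries and low in the knockouts. It had 54 and 25 counts in the knockouts, or 1.47 and 0.696 TPM, against 2 and 1 counts in the controls, or 0.0502 and 0.0249 TPM. Both knockout libraries lay well above both controls, by the difference on which the gene was selected. The ratio of normalised counts was 30.1 with a 95% exact counting interval of 9.92 to 149, and it ran from 20.7 without knockout replicate 1 to 45.3 without control replicate 1. DESeq2, which called 90 genes or 0.392% of all it tested, called Atp1a4 higher, as did edgeR without a low-count filter, which called 0.158% of genes, while edgeR with the filter did not; since the gene was selected on this contrast, nothing is read from these calls.

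Values that bear on the identity of these reads were as follows. Of the 3634 distinct words of 31 bases in annotated Atp1a4 transcripts, 173 (4.76%) also occur in transcripts of another gene. Of 14 genes of male germ cells and sperm, 9 had at most 3 counts in every library, among them Akap4, Smcp and Tnp1, whose counts were 0 in all 4. The list's summed TPM was 44.1 and 31.3 in the knockouts, against 34.5 and 39.3 in the controls. Of the other 5 genes, the protamine gene Prm1 had 11 and 13 counts in the knockouts, against 3 and 12 counts in the controls. Ldhc had 0 and 1 counts in the knockouts, against 8 and 0 counts in the controls. Tcp11 had 115 and 39 counts in the knockouts, against 35 and 95 counts in the controls. Odf2 had the most, at 29.0 and 21.8 TPM in the knockouts, against 24.6 and 26.4 TPM in the controls. Hspa1l had 9.58 and 5.53 TPM in the knockouts, against 8.01 and 8.54 TPM in the controls. Odf2 and Hspa1l made up most of the list's sum, which therefore says little about the other genes. Tnp2, among the 9, had 2 and 2 counts in the knockouts, against 0 and 0 counts in the controls. The part of germ cell RNA in the Atp1a4 value was not tested.

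Of the tested neighbours of Atp1a4 on chromosome 1 that are shown here (order from GENCODE M21, GRCm38), none differed by a similar factor. Casq1, a calcium store protein of muscle that is the nearest tested protein-coding gene on one side, had 3.78 and 2.25 CPM in the knockouts, against 3.89 and 3.36 CPM in the controls. Igsf8, a cell surface protein gene on the other side, had 50.5 and 53.6 CPM in the knockouts, against 50.8 and 43.1 CPM in the controls. Both knockouts lay above both controls for Pea15a, at 158.6 and 176.0 CPM against 120.9 and 113.1 CPM in the controls, and for the potassium channel gene Kcnj10, at 2.0 and 1.5 CPM against 0.489 and 0.940 CPM in the controls. Their log2 fold changes were 0.52 (SE 0.21) and 1.28 (SE 0.56), and neither passed when adjusted over all genes. Both knockouts lay above both controls in CPM for 12.2% of all genes tested.

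**Figure D3:**
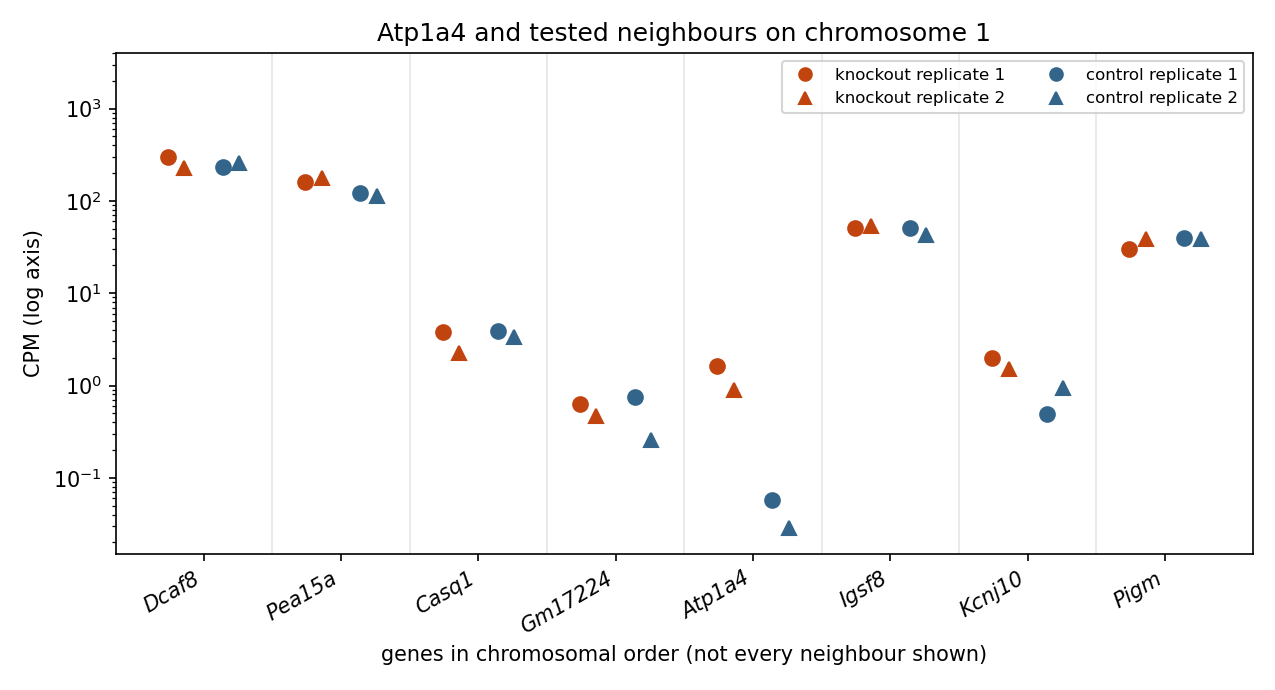
CPM (log axis) of Atp1a4 and 7 of the tested genes around it, in chromosomal order, in the knockout (orange) and control (blue) libraries. Atp1a4 stands at 1.63 and 0.891 CPM in the knockouts and 0.0576 and 0.0285 CPM in the controls, and among the neighbours shown the groups lie farthest apart for Kcnj10, at 2.0 and 1.5 CPM in the knockouts and 0.489 and 0.940 CPM in the controls.

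Likeness of profile was measured as the Euclidean distance between centred log2 CPM over the 4 libraries, among tested genes averaging 1 CPM or more. Nearest to Atp1a4 were Gm3650 (distance 0.594) and the olfactory receptor gene Or7g25 (0.863). Gm3650 had 184 and 143 counts in the knockouts, against 14 and 8 counts in the controls. For Scnn1a the nearest were 4930466K18Rik (0.0255) and Rnf152 (0.0498), and for Scnn1b they were Caskin1 (0.0924) and Ltk (0.113). With 4 libraries, many genes share a profile by this measure.

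Across the group, 0 of the 7 tested genes passed the edgeR quasi-likelihood test with Benjamini-Hochberg adjustment over all 20950 genes, where 1 gene (0.00477%) was called in all, and limma-voom called none. At an unadjusted p under 0.05 the count was 1 of 7, Atp1a4, against 3.01% of all genes tested. Both knockouts lay above both controls in CPM for 2 of the 7, Atp1a4 and Scnn1b, against 12.2% of all genes, and below both controls for Scnn1a alone, against 13.1% of all genes. Since the choice of members used this contrast, nothing is read from these shares. The median log2 fold change was −0.07 for the 7 genes and 0.0063 for all genes tested. For 5 of the 7 the fold between the 2 controls exceeded the ratio of the group means. The same count was not made over all genes, so nothing is read from it.

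**Figure D4:**
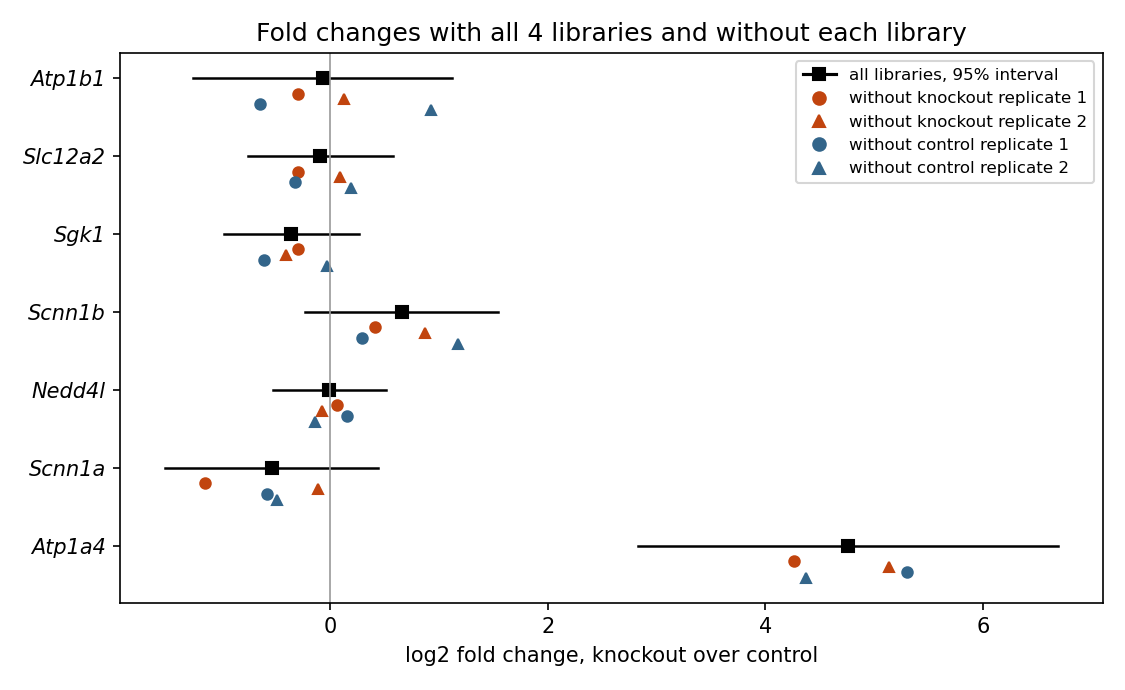
Log2 fold change, knockout over control, of the 7 tested genes (squares) with its 95% interval (lines), and the same value with each library left out in turn (coloured symbols). Atp1a4, selected on this difference, lies at 4.76 with an interval of 2.83 to 6.69, and Atp1b1 runs from −0.65 to 0.93 with 1 library left out.

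The wider machinery of epithelial sodium transport was examined in 9 lists of related genes. Of their 101 tested genes, 0 were called higher and 0 lower when adjusted over all genes, and at an unadjusted p under 0.05 there were 2 higher and 4 lower, where 3.01% of all genes passed in either direction. Both knockouts lay above both controls for 12 of the 101, where 12.2% of all genes did so, and below both for 16, where 13.1% of all genes did so, and the median log2 fold change was −0.02.

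Among proteases that activate ENaC by cleaving its extracellular loops, 3 of 9 had a log2 fold change above 0 and 6 below, with a median of −0.15. Tmprss2, a membrane serine protease, had 43.8 and 45.0 TPM in the knockouts, against 57.9 and 72.5 TPM in the controls (log2 fold change −0.49, SE 0.23), and its groups did not overlap. Ctsb, the gene of cathepsin B and the most abundant of the list, had 634.5 and 530.5 TPM in the knockouts, against 990.2 and 656.8 TPM in the controls (log2 fold change −0.45, SE 0.35). Of 5 tested inhibitors of such proteases, 2 were lower at an unadjusted p under 0.05, which 3.01% of all genes passed in either direction. The list was chosen with earlier results of these data known, so nothing is read from this share. Serpine2, protease nexin, had 26.3 and 26.6 TPM in the knockouts, against 60.4 and 46.6 TPM in the controls (log2 fold change −0.95, SE 0.24). Likewise Spink1, whose product inhibits trypsin, had 48.8 and 32.8 TPM in the knockouts, against 117.8 and 255.7 TPM in the controls (log2 fold change −2.15, SE 0.41). The edgeR test did not call Spink1 when adjusted over all genes; DESeq2 called it lower, as did edgeR without a low-count filter, without control replicate 1, and with replicate numbers crossed between the groups as a block, an alternative added after seeing the data. Spink1 is also among the 9 gland markers, all of them tested, which summed to 143.3 and 159.1 TPM in the knockouts, against 455.6 and 400.0 TPM in the controls, and their part in these values was not tested. Without Spink1 itself and Prss29, the gene that carries Cre, the other 7 summed to 94.5 and 126.3 TPM in the knockouts, against 219.8 and 129.7 TPM in the controls, with a narrow gap between knockout replicate 2 and control replicate 2. Of these, Cxcl15 stood at 55.4 and 97.8 TPM in the knockouts, against 44.4 and 58.2 TPM in the controls. Aldh1a1 stood at 10.5 and 11.8 TPM in the knockouts, against 6.33 and 7.85 TPM in the controls. Going the other way, Ttr stood at 1.35 and 1.38 TPM in the knockouts, against 33.2 and 13.3 TPM in the controls. Wfdc3 stood at 4.46 and 4.88 TPM in the knockouts, against 18.5 and 18.4 TPM in the controls. Prss28 and Lif were also lower in both knockouts than in both controls, and the groups of Foxa2 overlapped in TPM. The most abundant inhibitor, Spint2, had 211.1 and 152.3 TPM in the knockouts, against 144.4 and 222.2 TPM in the controls, and its groups overlapped.

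Among the other pump subunits and FXYD regulators, 2 genes were higher and 1 lower at an unadjusted p under 0.05 (3.01% of all genes), of 14 tested, with a median log2 fold change of −0.03. That median was −0.28 without knockout replicate 1 and 0.24 without control replicate 2. Atp1b2, a beta subunit best known from brain, had 34.6 and 24.5 TPM in the knockouts, against 22.3 and 18 TPM in the controls (log2 fold change 0.60, SE 0.24). Fxyd6 had 57.6 and 55.4 TPM in the knockouts, against 40.3 and 40.1 TPM in the controls (log2 fold change 0.55, SE 0.20). Fxyd5 had 32.3 and 23.3 TPM in the knockouts, against 50.8 and 37.0 TPM in the controls (log2 fold change −0.62, SE 0.25). In these 3 genes the groups did not overlap, as in 12.2% of all genes on the higher side and 13.1% on the lower, and none passed over all genes.

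Of 11 tested corticosteroid receptor genes and targets, 9 had a log2 fold change above 0, and 0 had an unadjusted p under 0.05. Their median was 0.24, where the median of all genes tested was 0.0063. The list median was 0.08 without knockout replicate 1 and 0.38 without knockout replicate 2. Tsc22d3, a glucocorticoid-induced regulator known as GILZ, had 124.7 and 130.7 TPM in the knockouts, against 80.7 and 102.7 TPM in the controls (log2 fold change 0.54, SE 0.24). Hsd11b2, whose enzyme inactivates glucocorticoids and so reserves the mineralocorticoid receptor for aldosterone, was the most abundant at 551.1 and 347.2 TPM in the knockouts, against 337.6 and 445.1 TPM in the controls. The mineralocorticoid receptor gene Nr3c2 was low, at 2.38 and 2.08 TPM in the knockouts, against 1.79 and 1.5 TPM in the controls. In the WNK, SPAK and OSR1 kinase list, which controls Slc12a2, the median was 0.03 over 10 genes. Wnk2 had the smallest unadjusted p of that list (0.0719), at 19.7 and 11.9 TPM in the knockouts, against 12.4 and 9.13 TPM in the controls.

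In the SGK1, NEDD4L and PI3K signalling list the 18 tested genes had log2 fold changes between −0.24 and 0.31, with a median of −0.01. Of 17 other sodium carriers, 12 were below 0, and Slc9a2, a sodium-proton exchanger, was the 1 with an unadjusted p under 0.05, at 0.644 and 0.278 TPM in the knockouts, against 1.71 and 0.877 TPM in the controls. The ASIC genes, acid-sensing relatives of ENaC, had a median of 0.61 over 4 tested genes. Asic2, the most abundant of them, had 11.8 and 12.1 TPM in the knockouts, against 9.29 and 8.27 TPM in the controls. Asic1 went the other way (log2 fold change −0.5, SE 0.43). Asic4 had 120 and 76 counts in the knockouts, against 65 and 7 counts in the controls. Asic3 had only 29 to 48 counts per library. Chloride and potassium channels and exchangers had a median of −0.12 over 13 genes. Among them Kcnk5, a potassium channel, had 18.4 and 42.5 TPM in the knockouts, against 23.2 and 14.4 TPM in the controls, and its groups overlapped.

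**Figure D5:**
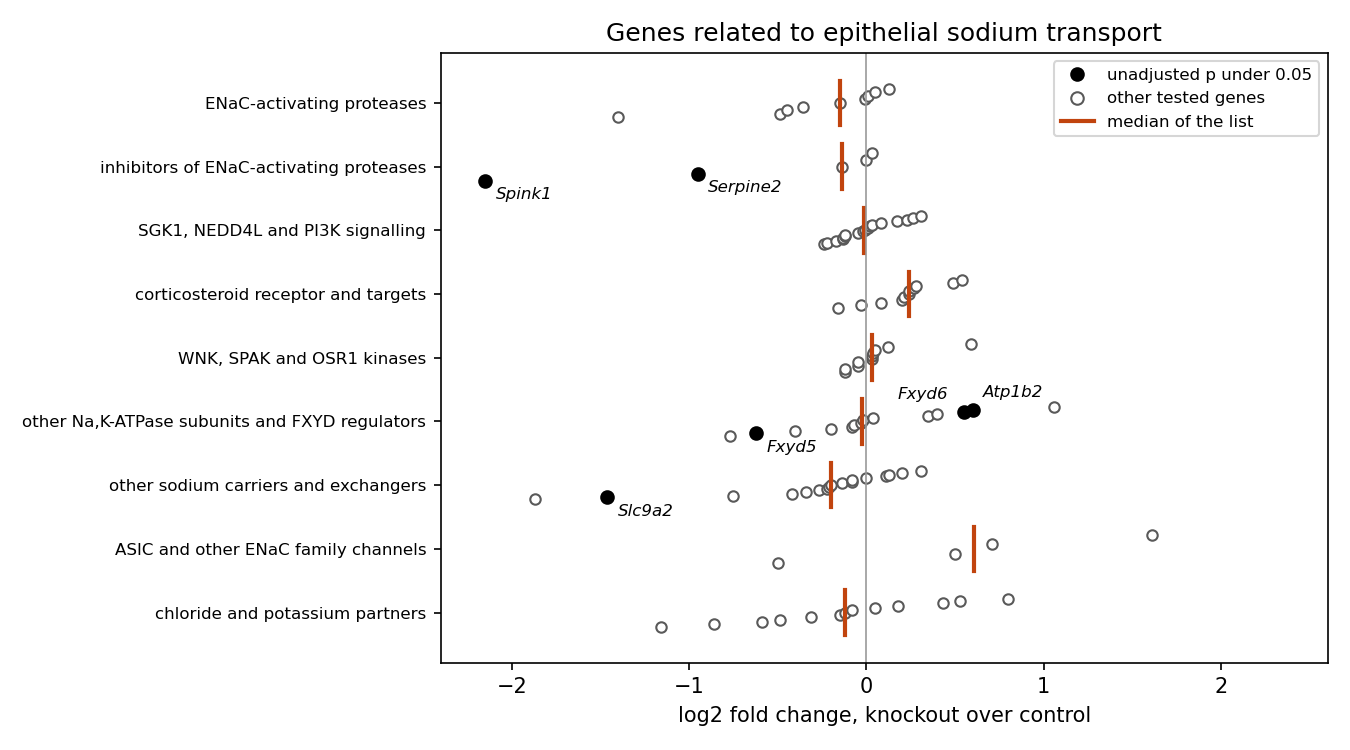
Log2 fold change, knockout over control, of each tested gene in 9 lists related to sodium transport; filled points have an unadjusted p under 0.05 and the orange bars are list medians. The 6 filled genes are Spink1, Serpine2, Fxyd5 and Slc9a2 on the lower side and Fxyd6 and Atp1b2 on the higher side, and the medians run from −0.20 to 0.61.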

How the data were processed

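Whole-uterus RNA was read as paired ends of 150 bases after a NEBNext Ultra II preparation, per the labels and the series' design text, which also names bcl2fastq 2.17. Per the submitters' processing notes, Trimmomatic, STAR, featureCounts and GRCm39 were used; the sources used here do not give versions, annotation, strand setting or how multiply matching reads were handled. The authors deposited raw counts for 57186 genes and TPM for 19991 of them, all with a total count of at least 51. TPM of Scnn1g and of other genes outside that table was computed from counts and lengths in the same way.

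Counts were tested across all genes with edgeR 4.0.16 (quasi-likelihood F-test, group as the only term, TMM, filterByExpr with a minimum count of 10 and a minimum total of 15, Benjamini-Hochberg at 0.05) in R 4.3.3. Fold changes are knockout over control, with intervals of 95%. The biological coefficient of variation was 0.309. Ratios of low counts have exact binomial intervals, which cover counting error only, since PCR copies are not independent molecules. The alternatives included factors by RLE and upper quartile, DESeq2 1.42.0, voom and limma-trend of limma 3.58.1, other filters, a replicate block and leaving out each library. The procedure was tested on simulated data. The members and lists were chosen with earlier results of these data known. Named from each list are the 4 genes with the smallest p and the most abundant, or some of these. Some pump and neighbouring genes are not reported here. Symbols of 19934 tested genes came from the deposited table and of 890 from a reference table.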

Additional observations from a re-analysis of the deposited data

How the results depend on the processing

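Over all genes, 1 was called, and the count was the same with RLE and upper-quartile factors. It was 90 with DESeq2 (44 higher and 46 lower), 0 with limma-voom (602 at an unadjusted p under 0.05), 3 with log2(TPM + 1), 6 with log2(TPM + 0.1), 54 with no low-count filter, 0 with a stricter filter (424 at an unadjusted p under 0.05), and 16 to 49 with 1 library left out. Of the sodium genes 0 were called, except 1, Atp1a4, under DESeq2 and in edgeR without a filter. The stricter filter removed Atp1a4, and its log2 fold change of 4.76 was 0.98 with log2(TPM + 1), a scale that understates the change of low genes.

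Among the sodium genes, sign changes were limited to those with values near 0. Atp1b1, at −0.07, was 0.12 with limma-voom, 0.06 with both log2 TPM scales, and between −0.65 and 0.93 with 1 library left out. Nedd4l, at −0.01, ran from −0.14 to 0.15 and Slc12a2, at −0.09, from −0.32 to 0.19 with 1 library left out, and no other alternative turned their sign. Medians of the related lists also depended on the setting. For the other pump subunits and FXYD regulators the median, at −0.03, was 0.27 with limma-voom and 0.21 with a replicate block. For the corticosteroid list the median, at 0.24, was 0.14 with both log2 TPM scales. The causes were not tested.

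The labels give the groups the same replicate numbers and do not say that a number marks a shared litter or day. Same-numbered libraries deviated in opposite directions (correlation across genes −0.444). With a replicate block 32 genes were called, and Atp1b1 stood at 0.12. With the crossed pairing, added after seeing the data, 37 were called, and Atp1b1 again stood at 0.12; in both, 0 of the sodium genes were called. Depth limits Scnn1g, with at most 5 counts per library, and the control side of Atp1a4.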

Other observations

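The spread inside each group had a common direction for several of the sodium genes. Scnn1a, Scnn1b, Slc12a2 and Atp1b1, 4 of the 7 tested, were higher in CPM in knockout replicate 1 than in knockout replicate 2 and higher in control replicate 2 than in control replicate 1. The same held for 35% of all tested genes, and the opposite in both groups for 33.4%. Of the 101 related genes tested, 30 had this direction and 35 the opposite. In CPM, the 8 smooth muscle markers went the opposite way in both groups. All were lower in control replicate 2 than in control replicate 1, and in knockout replicate 1 than in knockout replicate 2. In TPM, Smtn (308.2 against 272.4) and Mylk (394.0 against 371.5) were higher in knockout replicate 1 than in knockout replicate 2. The part of the smooth muscle markers in the values of the sodium genes was not tested. Adipocyte markers summed to 0.464 and 83.6 TPM in knockout replicates 1 and 2 and to 1.57 and 13.9 TPM in control replicates 1 and 2, so knockout replicate 2, where Scnn1a was lowest, held the most; their part in the Scnn1a value was not tested.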
